A study of Mus musculus with 64 samples.

Results

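Common myeloid progenitors (CMP) and granulocyte-monocyte progenitors (GMP) of wild-type fetal mouse liver were compared by the 3 wild-type libraries of each population, 6 of the 64 libraries of the series. The members are all gene rows listed in the counts of both populations, 15734 genes, of which 11099 had enough reads to be tested. The series measured RNA in LSK cells (the Sca-1+ c-Kit+ fraction that holds stem cells), CMP, GMP and megakaryocyte-erythroid progenitors from fetuses of strain C57BL/6. The fetuses were wild type (WT), Smarcd2 +/- (HET) or Smarcd2 -/- (KO). Smarcd2 encodes a subunit of the BAF chromatin remodelling complex. All 6 libraries compared are labelled WT, liver, fetus, 13 to 14 days post coitum, with the sex not determined. Both gates were CD45+, lineage-negative, Sca-1-negative and CD34+, and differed in CD16/32, the Fc gamma receptors, which was intermediate for CMP and high for GMP. The further positive marker is CD177 in the sample labels and CD117 (c-Kit) in the antibody panel. The labels do not state that libraries came from separate fetuses, so p-values measure the spread between these libraries, which may be technical in part.

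In the classical scheme of blood formation CMP can give rise to both the erythroid-megakaryocyte and the granulocyte-monocyte branch, and GMP give rise to neutrophils, monocytes and, through further progenitors, eosinophils, basophils and mast cells. Neutrophil granules are made in waves: primary (azurophil) granule proteins such as myeloperoxidase and the serine proteases are made in promyelocytes, and secondary and tertiary granule proteins later. The transcription factors PU.1 and C/EBP alpha act early on this path, GFI1 and C/EBP epsilon later, while IRF8 and KLF4 are known for the monocyte side.

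The deposited counts held 2808447 to 8092644 reads in genes for each CMP library and 1006090, 3813377 and 6300070 for GMP replicates 2, 5 and 12. Levels are given as CPM, the read count scaled to the effective library size, always in the order of replicates 2, 5 and 12. GMP replicate 2, the shallowest library, stood apart from GMP replicates 5 and 12. Which of these profiles is more typical of GMP was not tested. Across the 11099 genes its log2 CPM correlated at 0.91 to 0.914 with the 3 CMP libraries and at 0.836 to 0.84 with the other two GMP libraries, which correlated with each other at 0.972. The CMP libraries correlated among themselves at 0.97 to 0.978. On the first principal component, which held 67.33% of the variance, GMP replicate 2 lay at -29.77, the CMP libraries between -45.15 and -35.93, and GMP replicates 5 and 12 at 73.48 and 78.48. An index of long over short transcripts (above 5000 against below 1500 exonic bases, log2 units) was 0.327 in GMP replicate 2, -0.495 and -0.354 in GMP replicates 5 and 12, and -0.028, 0.307 and 0.171 in CMP. Counts of called list members are therefore also given without GMP replicate 2. In that fit 29.9% of all genes tested rose and 31.3% fell, and such list counts are to be read beside these shares. A fit with this index as a covariate called 473 genes in place of 450. Beyond these values, that fit and the medians by transcript length given at the end, the part of length and depth was not tested. Each population was counted in a table of its own, so what set the tables apart cannot be told apart from the populations.

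**Figure D1:**
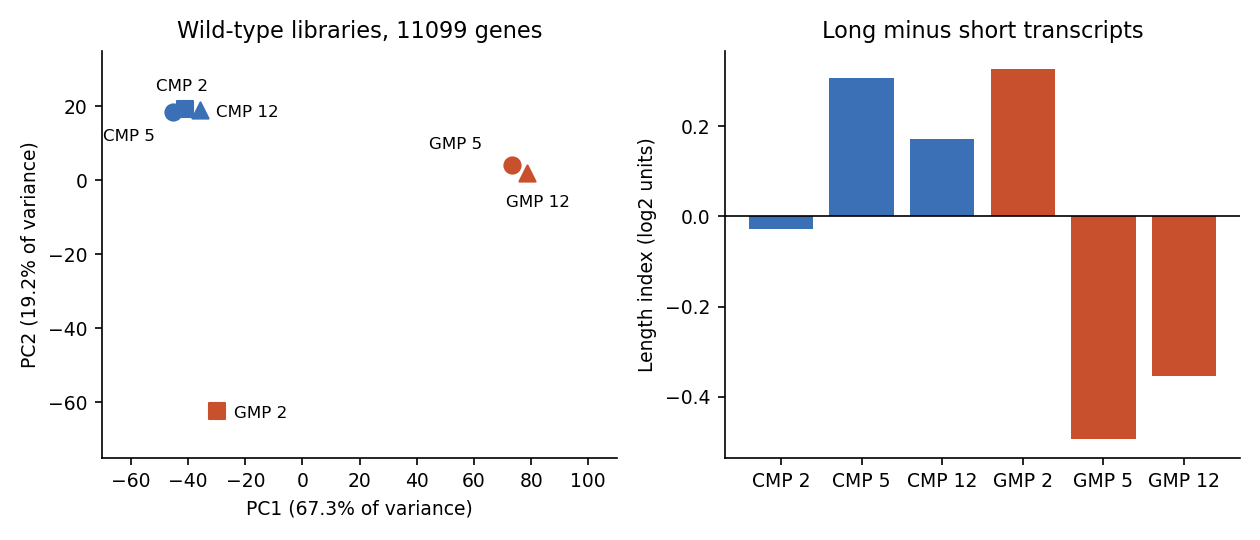
Left, principal components of log2 CPM of the 6 wild-type libraries (blue CMP, orange GMP, squares replicate 2, circles replicate 5, triangles replicate 12). Right, the length index of each library as bars; GMP replicate 2 lies near the CMP libraries on the first component (-29.77) and has the index 0.327, while GMP replicates 5 and 12 have -0.495 and -0.354.

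Smarcd2, the gene targeted in the mutants, had RNA in all 6 libraries. It stood at 88.2, 116 and 126 CPM in CMP and 103, 104 and 103 CPM in GMP (log2 fold change -0.09, SE 0.23, adjusted p = 0.804), and the groups overlapped. The Fc gamma receptors that separate the gates were higher in GMP in their RNA too. Fcgr3, which encodes the CD16 part of the CD16/32 stain, stood at 73.4, 71 and 128 CPM in CMP and 512, 1351 and 1475 CPM in GMP (log2 fold change 3.62, SE 0.47, adjusted p = 0.00542). Fcgr2b, which encodes CD32, stood at 51.5, 35.3 and 58.3 and 165, 296 and 348 CPM (log2 fold change 2.48, SE 0.34, adjusted p = 0.00672). Every GMP library lay above every CMP library for both genes, but since the gate chose cells on these proteins this is a check of the sort and not a result. Cd34, positive in both gates, stood at 763, 788 and 893 CPM in CMP and 301, 602 and 712 CPM in GMP (log2 fold change -0.59, SE 0.33, adjusted p = 0.255). Kit stood at 173, 183 and 177 and 206, 70.7 and 88.6 CPM, high in GMP replicate 2 and lower in the other two GMP libraries (log2 fold change -0.57, SE 0.38, adjusted p = 0.33). Ptprc, which encodes CD45, was at 161, 178 and 164 and 139.6, 56.5 and 46.5 CPM. Cd177, the antigen written in the labels, had 1 read in the 3 GMP libraries together and is listed in the GMP counts only.

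From CMP to GMP, genes of eosinophil and neutrophil granules were among the largest rises, and receptors of early progenitors and monocytes were among the largest falls. By edgeR's quasi-likelihood test with Benjamini-Hochberg adjustment at 0.05, 274 of 11099 genes rose from CMP to GMP (2.47%) and 176 fell (1.59%), with a lowest adjusted p of 0.000682 and 3064 genes at an unadjusted p under 0.05. For 1431 genes (12.9%) all 3 GMP libraries lay above all 3 CMP libraries, and for 1562 (14.1%) all lay below. Of the 450 called genes, 449 had groups that did not overlap. Without GMP replicate 2, 3372 of 11276 genes rose (29.9%) and 3535 fell (31.3%), and all 450 genes were called again in the same direction. Leaving out another library instead gave 31 calls without CMP replicate 2, 55 without CMP replicate 5, 95 without CMP replicate 12, 150 without GMP replicate 5 and 175 without GMP replicate 12. With the replicate number as a block, 162 genes rose and 66 fell. Within the libraries titled M32 (replicates 2 and 5) 47 genes rose and 5 fell, and M33 holds 1 library of each population. The median log2 fold change of all genes tested was -0.02. In these bulk samples, fewer cells of a type and less RNA per cell cannot be told apart.

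The 12 largest rises at a mean log2 CPM of at least 3 were Ear6, Prg2, Prg3, Epx, S100a8, Fcnb, Prom1, Far2, Elane, BC100530, Mgl2 and Sgms2. They range from a log2 fold change of 4.88 for Sgms2, a sphingomyelin synthase, to 6.98 for Ear6, a ribonuclease of eosinophils. Reads of Ear6 may be shared with near-identical Ear genes, and those of BC100530 with other stefin A genes, so both values are uncertain. Prom1, which encodes the membrane glycoprotein CD133, rose from 0.627, 2.09 and 6.88 CPM to 122, 102 and 155 CPM (log2 fold change 5.49, SE 0.68, adjusted p = 0.00456). Far2, a fatty acyl-CoA reductase, rose from 2.26, 2.61 and 7.21 to 56, 140.5 and 197 CPM (log2 fold change 5.13, SE 0.61, adjusted p = 0.00407). Mgl2, a C-type lectin, rose from 1.88, 2.87 and 6.22 to 67.8, 101 and 133 CPM (log2 fold change 4.89, SE 0.48, adjusted p = 0.00255). In all 3 genes every GMP library lay above every CMP library, and CMP replicate 12 was the highest of its group.

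The 12 largest falls at a mean log2 CPM of at least 3 were Flt3, Npl, Ifi203, Nrp1, Ccr2, F2r, Cx3cr1, Mmrn1, Gcnt2, Cd27, Gja1 and Calcrl. Flt3, the receptor tyrosine kinase of multipotent and lymphoid-primed progenitors, stood at 61.4, 63.2 and 75.3 CPM in CMP and 0, 2.83 and 1.91 CPM in GMP (log2 fold change -5.06, SE 0.46, adjusted p = 0.0017), with no read in GMP replicate 2. Ifi203, an interferon-inducible gene of the HIN-200 family, fell from 116, 103 and 109.7 to 10.8, 7.63 and 5.56 CPM (log2 fold change -3.87, SE 0.31, adjusted p = 0.00104). Nrp1, a co-receptor for semaphorins and VEGF, fell from 33.7, 56.9 and 50.1 to 2.95, 4.81 and 2.6 CPM (log2 fold change -3.74, SE 0.38, adjusted p = 0.00265). The groups lay far apart for these 3 genes in every library. Npl, an enzyme that breaks down sialic acid, fell from 26.6, 35 and 24.24 to 6.88, 0.565 and 1.39 CPM (log2 fold change -3.89, SE 0.64, adjusted p = 0.0136), with GMP replicate 2 the highest GMP library. Cd27, a TNF receptor family member of early lymphoid and multipotent progenitors, fell from 35.7, 41.8 and 38 to 2.95, 8.48 and 5.04 CPM (log2 fold change -2.70, SE 0.35, adjusted p = 0.00544). Gja1 (connexin 43) fell by 2.69, Gcnt2, a glycan branching enzyme, by 2.74, and Calcrl, the receptor for adrenomedullin and CGRP, by 2.53 on the log2 scale.

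**Figure D2:**
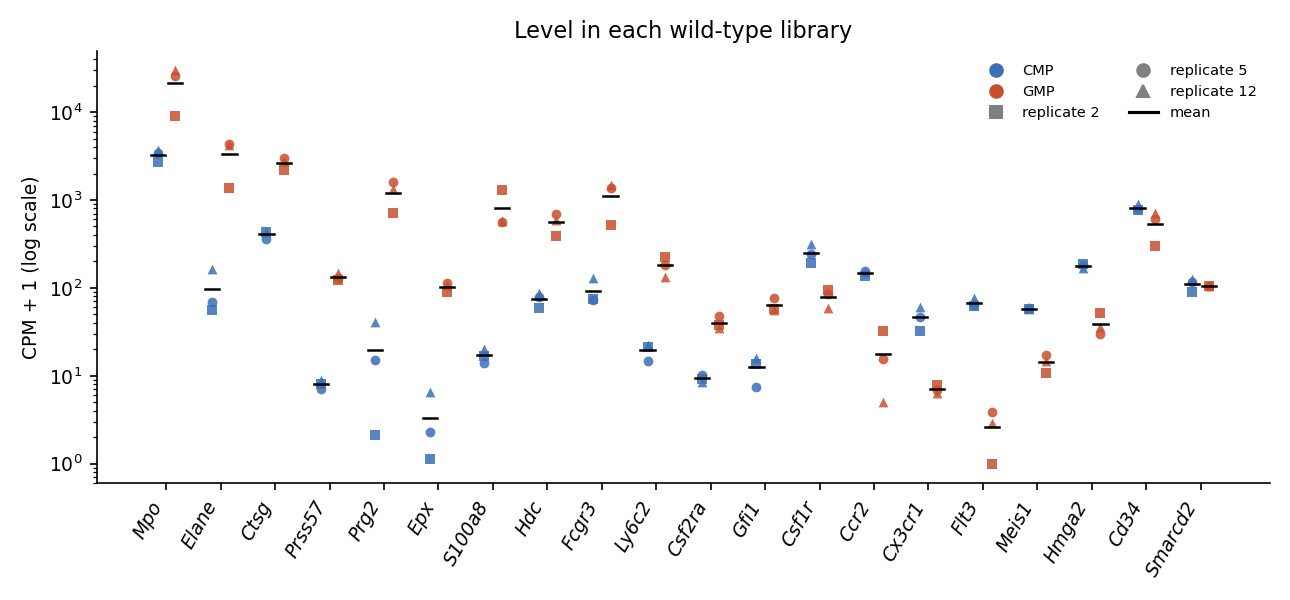
Level of 20 genes in each wild-type library, as CPM plus 1 on a log axis (blue CMP, orange GMP, marker shape the replicate, black bar the mean of 3). The Elane values of GMP (1382 CPM and more) lie above the highest CMP value (165 CPM), Flt3 is at 0 to 2.83 CPM in GMP, and Smarcd2 overlaps between the populations.

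Primary granule genes rose. Of 17 listed genes 16 were tested, 10 rose and none fell, with a median log2 fold change of 2.531 beside -0.02 over all genes. Every GMP library lay above every CMP library for 13 of them, beside 12.9% of all genes. All 16 rose without GMP replicate 2, with a median of 2.648. Together the 16 genes held 0.696%, 0.712% and 0.817% of the scaled reads in CMP and 2.15%, 4.83% and 5.11% in GMP. Their RNA was already abundant in CMP, where Mpo alone ranked 27, 20 and 18 of 9779 nuclear protein-coding genes by CPM per kilobase of exon. In GMP it ranked 7, 3 and 3.

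The start regions of 4 genes are shown, chosen as the enzymes that give primary granules their peroxidase and protease activity. Mpo encodes myeloperoxidase and lies at chr11:87793581-87804413, and Elane (neutrophil elastase, chr10:79886247-79888215), Prtn3 (proteinase 3, chr10:79874476-79883174) and Ctsg (cathepsin G, chr14:56099881-56102574) encode serine proteases. The windows run from 250 bases before to 50 bases after the RefSeq start, 5′ to 3′ on the gene's strand, and lie at chr11:87793534-87793833 (+), chr10:79886062-79886361 (+), chr10:79879417-79879716 (+) and chr14:56102525-56102824 (-) in GRCm38.p6. Capitals mark AGGAAG, a core letter pattern bound by ETS factors such as PU.1, and AACTG, the core of MYB sites, on either strand. The patterns do not overlap each other in these windows.
Mpo: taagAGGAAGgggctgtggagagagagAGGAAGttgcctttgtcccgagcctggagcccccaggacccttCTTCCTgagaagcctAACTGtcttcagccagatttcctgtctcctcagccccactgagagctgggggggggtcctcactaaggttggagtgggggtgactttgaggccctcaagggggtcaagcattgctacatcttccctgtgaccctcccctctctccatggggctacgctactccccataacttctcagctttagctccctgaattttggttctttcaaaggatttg
Elane: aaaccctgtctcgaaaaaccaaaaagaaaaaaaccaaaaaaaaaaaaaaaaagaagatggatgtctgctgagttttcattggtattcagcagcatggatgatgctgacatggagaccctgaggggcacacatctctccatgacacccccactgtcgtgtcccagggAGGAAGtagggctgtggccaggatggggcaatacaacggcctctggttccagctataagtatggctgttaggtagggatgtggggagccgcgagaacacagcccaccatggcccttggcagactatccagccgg
Prtn3: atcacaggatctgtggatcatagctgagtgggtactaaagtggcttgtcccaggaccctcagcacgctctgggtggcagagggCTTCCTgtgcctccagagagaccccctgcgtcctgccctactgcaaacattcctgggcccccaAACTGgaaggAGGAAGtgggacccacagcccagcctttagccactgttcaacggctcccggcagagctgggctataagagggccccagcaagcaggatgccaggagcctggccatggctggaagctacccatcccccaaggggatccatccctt
Ctsg: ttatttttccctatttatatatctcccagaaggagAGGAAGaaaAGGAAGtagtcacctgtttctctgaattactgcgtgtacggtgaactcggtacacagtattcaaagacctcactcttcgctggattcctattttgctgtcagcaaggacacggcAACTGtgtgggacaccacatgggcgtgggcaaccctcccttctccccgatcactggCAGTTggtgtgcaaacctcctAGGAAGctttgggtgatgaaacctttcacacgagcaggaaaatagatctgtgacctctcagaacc
AGGAAG began 84 bases before the start in Elane, and 94 and, on the opposite strand, 167 bases before it in Prtn3. It stood 3 times in the Mpo and 3 times in the Ctsg window. Promoter windows of 300 bases were found for 13 of the 16 genes, and 11 of them held AGGAAG (84.6%), beside 35.1% of 27025 promoters of all genes. Over all genes that rose it was 40.2% of 209, and over those that fell 35.4% of 127. TTGCNNAA, the C/EBP pattern, was found in 15.3% of the genes that rose, 6.3% of those that fell and 10.8% of all promoters. GATAAG, the GATA pattern, stood in 3.35% and 3.94% against 7.43% of all promoters, and AACTG in 42.1% and 40.2% against 44.8%. Among promoters of all genes tested these shares were 33.5% for AGGAAG, 8.22% for TTGCNNAA, 4.82% for GATAAG and 37.6% for AACTG. Of the 13 primary granule windows, 7 held AACTG (53.8%) and 2 held TTGCNNAA (15.4%). None held GATAAG or a pattern of IRF factors, which was searched too. The patterns differ in length and in their share over all promoters, so their shares in this small set are not to be ranked against each other. Whether any of these shares differs from other genes was not tested. Both strands were searched, and a match is a string of letters and not a site shown to be bound.

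Mpo stood at 2683, 3432 and 3737 CPM in CMP and 9087, 25933 and 29774 CPM in GMP (log2 fold change 2.72, SE 0.49, adjusted p = 0.0201), with GMP replicate 2 at about the middle between the groups on a log scale. Elane rose from 55.1, 67.6 and 165 CPM to 1382, 4312 and 4179.7 CPM, a 34.5-fold change (log2 fold change 5.11, SE 0.63, adjusted p = 0.00454). Ctsg rose from 432, 358 and 427 to 2195, 3018 and 2755 CPM (log2 fold change 2.71, SE 0.28, adjusted p = 0.00265). Elane was lower in CMP than Ctsg and Mpo in every library per kilobase of exon as well, and differences between genes in fold change were not tested. Prtn3, which lies 3073 bases from Elane, was at 358, 289 and 219 CPM in CMP and 792, 641 and 499.8 CPM in GMP and did not pass (log2 fold change 1.16, SE 0.29, adjusted p = 0.0623), although all GMP libraries lay above all CMP libraries. Prss57, a serine protease of the same chromosome region, had the lowest adjusted p of all genes and rose from 7.02, 6.01 and 7.86 to 123, 127 and 145 CPM (log2 fold change 4.24, SE 0.26, adjusted p = 0.000682). Its GMP libraries were alike, replicate 2 included.

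The other members that rose are Ms4a3, Cd63, Nkg7, Serpinb1a, Srgn and Cst7. Ms4a3, a membrane protein known as a marker of GMP, rose from 87.2, 47.3 and 102 to 1064, 2054 and 2099.7 CPM (log2 fold change 4.46, SE 0.43, adjusted p = 0.00233). Cd63, a tetraspanin of granule membranes, rose from 37.3, 38.1 and 53.4 to 362, 827 and 676 CPM (log2 fold change 3.86, SE 0.38, adjusted p = 0.00233). Srgn encodes serglycin, the proteoglycan that packs granule proteases, and rose from 541, 392 and 562 to 2150.4, 2711 and 2766 CPM (log2 fold change 2.35, SE 0.29, adjusted p = 0.00428). Serpinb1a, an inhibitor of these proteases, rose from 275, 259.6 and 389.8 to 714, 3544 and 3434 CPM (log2 fold change 3.06, SE 0.57, adjusted p = 0.0225), and Cst7, an inhibitor of cysteine proteases, had a log2 fold change of 1.84 (adjusted p = 0.011). Genes for proteases and for their inhibitors were thus both higher in all 3 GMP libraries. Nkg7, a granule membrane protein, had 3.65 (adjusted p = 0.00456). Of those that did not pass, Calr had 0.75 (adjusted p = 0.171), Gusb 0.90 (adjusted p = 0.157), Lyz2 0.84 (adjusted p = 0.256) and Ctsc, the enzyme that activates the serine proteases, 0.46 (adjusted p = 0.402). Lyz2 was at 307, 1112 and 1131 CPM in GMP, low in replicate 2, against 412, 377 and 637 in CMP. Bpi had too few reads to be tested.

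A part of the list of secondary and tertiary granule genes rose, among them the cytosolic pair S100a8 and S100a9 and the receptor gene Ltb4r1. Of 18 listed genes 9 are listed in both populations and 8 were tested, and 5 rose and none fell (median 3.231, and 5 rose without GMP replicate 2). S100a8 encodes a subunit of calprotectin, the main cytosolic protein of neutrophils, and rose from 15.8, 13.1 and 19.33 to 1304, 557 and 577 CPM (log2 fold change 5.66, SE 0.45, adjusted p = 0.00104). Its partner S100a9 rose from 4.89, 7.05 and 1.97 to 251, 86.8 and 74 CPM (log2 fold change 4.82, SE 0.62, adjusted p = 0.00533). GMP replicate 2 had the highest level of both. Fcnb, a ficolin of neutrophil granules, rose from 1.75, 2.87 and 7.53 to 82.6, 231 and 239 CPM (log2 fold change 5.63, SE 0.64, adjusted p = 0.00339). Ltb4r1, the leukotriene B4 receptor, rose 16-fold from 4.39, 5.48 and 5.9 to 83.6, 87.3 and 78.7 CPM (adjusted p = 0.000797), and Hp (haptoglobin) from 49.9, 58.5 and 60.3 to 247, 267 and 213 CPM (log2 fold change 2.11, SE 0.23, adjusted p = 0.00322). Ltb4r1 and Hp had tight values within both groups. The defining secondary granule genes Ltf (lactoferrin) and Ngp did not pass: Ltf was at 0.251, 6.01 and 0 CPM in CMP and 0, 26.3 and 3.13 in GMP, and Ngp at 0, 6.53 and 0.328 and 3.93, 25.4 and 2.08. For Cybb, the large membrane subunit of the oxidase, the log2 fold change was -0.06 (adjusted p = 0.853).

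A further 8 genes of this list are listed in the GMP counts only, where no comparison with CMP could be made. The GMP counts list 12158 genes that the CMP counts do not, and these held 0.507% of the WT GMP reads in genes. Those with the most reads were Olfm4, Pglyrp1, Mcemp1, Serpine2 and Cebpe. Olfm4 (olfactomedin 4, a secondary granule protein) was at 68.8, 98.4 and 105 CPM in GMP. Pglyrp1, a peptidoglycan recognition protein of granules, was at 55.1, 108 and 98.3 CPM. Cebpe, the C/EBP factor of late granulocyte differentiation, was at 70.8, 64.7 and 56.3 CPM, with little spread. Mcemp1 was at 31.5, 76.9 and 88 CPM and Serpine2, a protease inhibitor, at 17.7, 86.2 and 70.3 CPM. Camp (cathelicidin) was at 21.63, 15.6 and 17.5 CPM, Lcn2 (lipocalin 2) at 4.92, 5.94 and 5.04 CPM and Mmp8 at 4.92, 2.54 and 9.38 CPM, while Mmp9 had 1 read in all.

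Some genes of the NADPH oxidase, the endoplasmic reticulum secretory pathway and the lysosome rose too. Of 7 NADPH oxidase genes 2 rose and none fell (5 rose without GMP replicate 2). Cyba (p22phox, a membrane subunit) rose from 64.8, 65.8 and 61.3 to 129.8, 313 and 279 CPM (log2 fold change 1.92, SE 0.34, adjusted p = 0.018), and Hvcn1, the proton channel that works beside the oxidase, from 2.26, 4.7 and 4.26 to 20.6, 31.7 and 29.2 CPM (log2 fold change 2.93, SE 0.37, adjusted p = 0.00532). The cytosolic subunits Ncf1 and Ncf4 had 0.03 (adjusted p = 0.944) and 1.25 (adjusted p = 0.0608), and Rac2 had 0.88 (adjusted p = 0.123). Of 36 genes of the endoplasmic reticulum secretory pathway 7 rose and none fell (median 0.992). Every GMP library lay above every CMP library for 25 of them, beside 12.9% of all genes. Without GMP replicate 2, 25 rose and 6 fell. With the replicate number as a block 0 of the 36 rose, beside 162 of all 11099 genes. The 7 were Sdf2l1, P4hb, Dnajc3, Xbp1, Creld2, Ddost and Ssr2. P4hb, a protein disulfide isomerase, rose from 808, 898 and 867 to 1730.5, 2339 and 2624 CPM (log2 fold change 1.38, SE 0.27, adjusted p = 0.0279). Xbp1, the transcription factor of the unfolded protein response, rose from 196, 195 and 174 to 361, 568 and 544 CPM (log2 fold change 1.39, SE 0.26, adjusted p = 0.0225). Hyou1, another chaperone of this compartment, was at 112, 110.5 and 97.3 CPM in CMP and 248, 18.4 and 19.8 CPM in GMP, so that GMP replicate 2 was more than 10 times the other two. Of 27 lysosome genes 5 rose, among them Cd63, Neu1, Hexa and Ctsb, and 1 fell, Ctss, and 21 rose and 2 fell without GMP replicate 2. With the replicate number as a block 2 lysosome genes rose and 1 fell. Ctss, a cathepsin of antigen-presenting cells, fell from 44.6, 40 and 59.3 to 9.83, 16.7 and 12.3 CPM (log2 fold change -1.85, SE 0.30, adjusted p = 0.0124).

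Eosinophil genes had the highest median change of the 29 lists. Of 11 listed genes 7 were tested and 6 rose, with a median log2 fold change of 5.736. In all 7 every GMP library lay above every CMP library, beside 12.9% of all genes. All 7 rose without GMP replicate 2. Prg2, which encodes major basic protein, stood at 1.13, 14.1 and 40 CPM in CMP and 705, 1594 and 1316 CPM in GMP (log2 fold change 6.08, SE 1.05, adjusted p = 0.0164). Its CMP libraries spread widely, from replicate 2 to replicate 12, and with the length index as a covariate it did not pass (adjusted p = 0.188). Prg3, its neighbour 4583 bases away on chromosome 2, rose from 0.627, 3.4 and 4.91 to 89.5, 242 and 189.8 CPM (log2 fold change 6.04, SE 0.69, adjusted p = 0.00339). Epx, eosinophil peroxidase, which lies 59587 bases from Mpo on chromosome 11, rose from 0.125, 1.31 and 5.57 to 88.5, 113 and 106 CPM (log2 fold change 5.74, SE 0.81, adjusted p = 0.00754). The same order of CMP libraries, replicate 2 lowest and replicate 12 highest, held for these 3 genes and for Ear6 (0.125, 0.261 and 2.95 CPM in CMP and 188, 91.9 and 55.1 CPM in GMP). Siglecf, the surface lectin used to sort eosinophils, rose from 18, 15.9 and 19.33 to 80.6, 84.5 and 97.8 CPM (log2 fold change 2.31, SE 0.24, adjusted p = 0.00269). Alox15, a lipoxygenase, rose from 0.125, 0.261 and 0.655 to 7.87, 9.33 and 6.43 CPM (log2 fold change 4.66, SE 0.58, adjusted p = 0.00454). Adgre4 had 1.77 (adjusted p = 0.118). Ear1, Ear2 and Il5ra, the receptor for interleukin 5, are listed in the GMP counts only, where Ear1 was at 83.6, 70.4 and 38.4 CPM and Il5ra at 6.88, 5.65 and 6.77 CPM.

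Per kilobase of exon, Prg2 was at 1.346, 16.83 and 47.69 CPM in CMP and 841.3, 1903 and 1571 CPM in GMP, where it ranked 30, 11 and 14 of 9779 genes. Elane on the same scale was at 1404, 4382 and 4248 CPM in GMP and ranked 14, 5 and 5. Per length, RNA of the eosinophil major basic protein was thus below that of neutrophil elastase in each GMP library, while both were among the 30 highest genes.

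Basophil and mast cell genes moved less evenly: of 10 tested 3 rose and none fell (median 0.779), and 5 rose and 2 fell without GMP replicate 2. Hdc, which makes histamine, rose from 58.4, 77.8 and 87.5 to 385, 686 and 598 CPM (log2 fold change 2.90, SE 0.31, adjusted p = 0.00322). Cd200r3, a receptor of basophils and mast cells, rose from 4.14, 1.83 and 1.31 to 14.7, 42.4 and 24.8 CPM (log2 fold change 3.39, SE 0.52, adjusted p = 0.0105). Srgn, described above, is the third. Cpa3, mast cell carboxypeptidase, was at 131, 84.1 and 105 and 167, 315 and 309.8 CPM (log2 fold change 1.31, SE 0.31, adjusted p = 0.056), and Mcpt8, a basophil protease, at 7.64, 4.18 and 4.59 and 3.93, 33.9 and 21.19 CPM (log2 fold change 1.89, SE 0.58, adjusted p = 0.102). GMP replicate 2 was the lowest GMP library for all 4 of Hdc, Cd200r3, Cpa3 and Mcpt8. Of the genes listed in the GMP counts only, Ms4a2, a chain of the IgE receptor, was at 16.7, 28.8 and 41.2 CPM, Cma1 at 4.92, 26 and 50.2 CPM and Prss34 at 6.88, 25.4 and 15.6 CPM, again lowest in replicate 2.

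**Figure D3:**
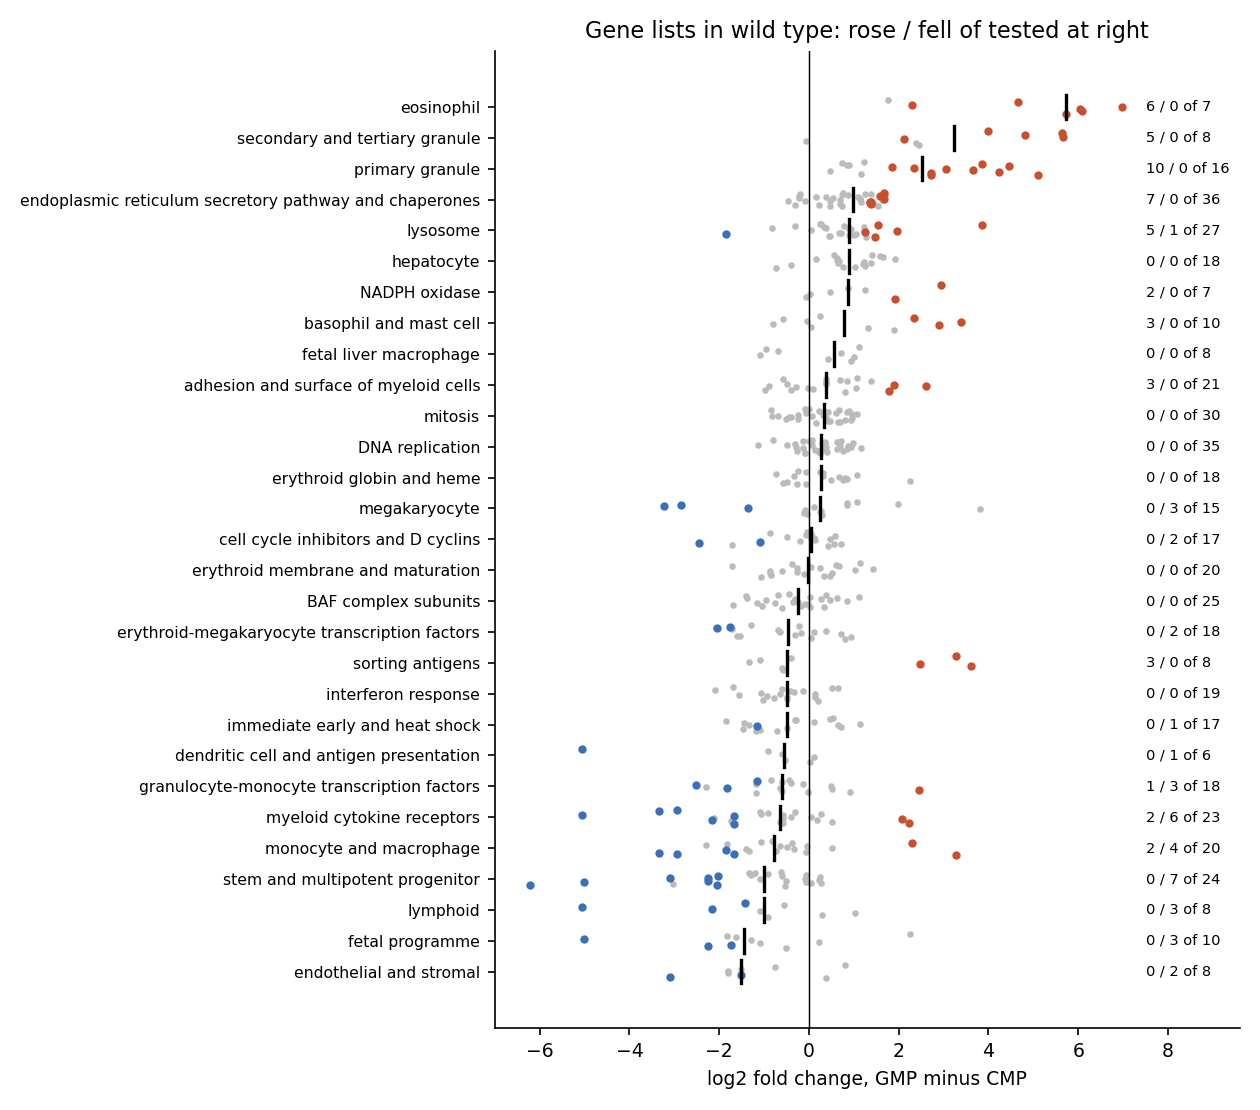
Log2 fold change, GMP minus CMP, of every tested gene of 29 lists in the wild-type fit (orange rose, blue fell, grey did not pass, black bar the median of the list), with the number that rose and fell of those tested at right. Lists are ordered by their median, from -1.509 for endothelial and stromal genes to 5.736 for eosinophil genes.

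More monocyte genes fell than rose, and most did not pass. Of 20 tested, 2 rose and 4 fell, and the median was -0.768. Every GMP library lay below every CMP library for 12 of them, beside 14.1% of all genes. Without GMP replicate 2, 3 rose and 13 fell, beside 29.9% and 31.3% of all genes. Csf1r, the receptor for the monocyte growth factor M-CSF, fell from 189, 239 and 317 to 93.4, 83.9 and 58.4 CPM (log2 fold change -1.67, SE 0.30, adjusted p = 0.0183). Ccr2, the chemokine receptor of classical monocytes, fell from 137, 155 and 152 to 31.5, 14.4 and 3.99 CPM (log2 fold change -3.34, SE 0.60, adjusted p = 0.0195). Cx3cr1, the fractalkine receptor of monocytes, macrophage progenitors and dendritic cells, fell from 31.7, 45.2 and 60.3 to 6.88, 5.94 and 5.38 CPM (log2 fold change -2.94, SE 0.34, adjusted p = 0.00368). For all 3 receptors every GMP library, replicate 2 included, lay below every CMP library, and Ctss is the other member that fell. Ly6c2, which encodes the monocyte antigen Ly6C and is also expressed in other myeloid progenitors, rose from 18.5 ± 4.31 CPM (SD, n = 3) in CMP, with 13.6 the lowest, to 226, 183 and 132 CPM in GMP (log2 fold change 3.28, SE 0.31, adjusted p = 0.00222). Clec4a2, a C-type lectin receptor, rose from 7.52, 7.05 and 10.5 to 30.5, 45.8 and 43.9 CPM (log2 fold change 2.29, SE 0.30, adjusted p = 0.00544). Members that did not pass include Ly86 (log2 fold change -1.83, adjusted p = 0.0659), Mpeg1 (log2 fold change -1.41, adjusted p = 0.215), Ifi30 (log2 fold change -1.08, adjusted p = 0.0625), Fcgr1 (log2 fold change -1.33, adjusted p = 0.0859) and F13a1 (log2 fold change -0.06, adjusted p = 0.906).

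Dendritic cell and antigen presentation genes were few: 6 of 18 were tested and 1, Flt3, fell (3 fell without GMP replicate 2). Tcf4, a factor of plasmacytoid dendritic cells, had -0.91 (adjusted p = 0.0917), and H2-Ab1 was at 2.76, 2.61 and 2.95 CPM in CMP and 0, 1.41 and 5.04 in GMP. Of 8 fetal liver macrophage genes edgeR and DESeq2 called none, limma called 4 higher and 2 lower, and 4 were higher and 1 lower at an unadjusted p under 0.05. Of all 11099 genes limma called 3348 higher and 3618 lower, and 3064 had an unadjusted p under 0.05. Adgre1, which encodes F4/80, was at 16.3, 24.8 and 26.2 and 31.5, 37 and 57.5 CPM (log2 fold change 0.94, SE 0.32, adjusted p = 0.122). Leaving out GMP replicate 2, 4 of the 8 rose and 1 fell, beside 29.9% and 31.3% of all genes. C1qb, Trem2 and Cd5l were below 15 CPM in every library.

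Among 23 myeloid cytokine and chemokine receptors, 2 rose and 6 fell (4 rose and 15 fell without GMP replicate 2). Csf2ra, the specific chain of the GM-CSF receptor, rose from 8.27, 9.14 and 7.53 to 36.4, 46.9 and 34.4 CPM (log2 fold change 2.24, SE 0.27, adjusted p = 0.0043). Ifngr1, the ligand-binding chain of the interferon gamma receptor, rose from 231, 198 and 236 to 587, 1127 and 1093 CPM (log2 fold change 2.08, SE 0.31, adjusted p = 0.00956). The beta chains that pair with Csf2ra did not pass: Csf2rb was at 139.6, 149 and 179 and 184, 69.3 and 66.3 CPM (log2 fold change -0.58, adjusted p = 0.341), and Csf2rb2, its near-identical neighbour with which reads may be shared, had -0.63 (adjusted p = 0.387). Csf3r, the G-CSF receptor, was at 50.1, 77.3 and 72.4 CPM in CMP and 82.6, 82.3 and 120.2 CPM in GMP (log2 fold change 0.52, adjusted p = 0.231). Besides Flt3, Csf1r, Ccr2 and Cx3cr1, the other genes that fell were Il4ra, from 51.2, 58.2 and 51.1 to 18.7, 10.7 and 9.03 CPM (log2 fold change -2.15, SE 0.32, adjusted p = 0.00916), and Il13ra1, from 13.3, 19.33 and 25.9 to 3.93, 7.35 and 5.9 CPM (log2 fold change -1.67, SE 0.37, adjusted p = 0.0434). These encode both chains of the type II receptor for interleukins 4 and 13. Epor had -1.08 (adjusted p = 0.29).

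Of 21 adhesion and surface genes 3 rose and none fell. Without GMP replicate 2, 12 rose and 3 fell, where 29.9% of all genes rose and 31.3% fell. Clec12a, an inhibitory lectin of myeloid cells, rose from 90.3, 102 and 157 to 473, 804 and 854 CPM (log2 fold change 2.62, SE 0.34, adjusted p = 0.00544). Clec5a, an activating lectin, had 1.90 (adjusted p = 0.0175) and Itgb2, the beta 2 integrin chain CD18, 1.79 (adjusted p = 0.0269). Itgam, the alpha chain of Mac1, was at 13.8, 22.46 and 20.31 CPM in CMP and 36.4, 6.5 and 6.77 CPM in GMP, with the highest and the lowest values both in GMP (log2 fold change -0.40, adjusted p = 0.671).

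Gfi1 was the only listed factor of either branch that rose in the fit of all 6 libraries. Of 18 granulocyte-monocyte factors, 1 rose and 3 fell (4 rose and 10 fell without GMP replicate 2). Gfi1, a repressor needed for neutrophil differentiation, rose from 12.8, 6.53 and 15.1 to 56, 75.2 and 55.6 CPM (log2 fold change 2.44, SE 0.35, adjusted p = 0.00755). Irf5, a factor of monocyte and macrophage activation, fell from 40.3, 60.3 and 52.4 to 20.6, 14.4 and 10.4 CPM (log2 fold change -1.82, SE 0.33, adjusted p = 0.0195). Id2, an inhibitor of E proteins, fell from 19, 26.6 and 25.6 to 10.8, 2.54 and 2.6 CPM (log2 fold change -2.52, SE 0.53, adjusted p = 0.035), and Egr1, an early response factor, had -1.17 (adjusted p = 0.0458). The master factors did not pass. Spi1 (PU.1) was at 99.7, 115 and 120.2 CPM in CMP and 126, 189 and 162 CPM in GMP (log2 fold change 0.52, adjusted p = 0.197), and Irf8 at 116, 161 and 153 and 61, 126 and 84.1 CPM (log2 fold change -0.65, adjusted p = 0.197). Cebpa was at 29.4, 32.6 and 39.3 CPM in CMP and 38.3, 8.76 and 5.04 CPM in GMP (log2 fold change -1.18, adjusted p = 0.248). GMP replicate 2 lay within the CMP range for Cebpa, and the other 2 GMP libraries lay far below it. Without that replicate the log2 fold change was -2.32 (adjusted p = 4.69e-07). In the 6 HET GMP libraries compared below, Cebpa ranged from 4.33 to 50.4 (median 30.7) CPM. The log2 fold change in HET was 0.10 (adjusted p = 0.905). The value without GMP replicate 2 is therefore not taken to show that Cebpa falls in GMP. Runx1 (log2 fold change -1.17, adjusted p = 0.0706) and Klf4 (log2 fold change -2.30, adjusted p = 0.0704) did not pass, with every GMP library below every CMP library. Myb was at 274, 268 and 239.8 CPM in CMP and 436, 78 and 70.7 CPM in GMP, above CMP in replicate 2 and below it in the other two.

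Of 18 erythroid-megakaryocyte factors none rose and 2 fell (2 rose and 9 fell without GMP replicate 2). Meis1, a partner of HOX factors in stem cells and megakaryocytes, fell from 55.9, 57.7 and 56.3 to 9.83, 16.4 and 13.7 CPM (log2 fold change -2.04, SE 0.27, adjusted p = 0.00544). Mef2c, a factor of lymphoid, megakaryocyte and monocyte differentiation, fell from 196, 221 and 226 to 83.6, 53.7 and 54 CPM (log2 fold change -1.77, SE 0.26, adjusted p = 0.00875). Neither GATA factor passed. Gata1 was at 13.4, 20.6 and 18.7 CPM in CMP and 29.5, 32.8 and 29.4 CPM in GMP (log2 fold change 0.81, adjusted p = 0.117), so that every GMP library lay above every CMP library, and Gata2 was at 41, 40.2 and 31.4 and 45.2, 36.5 and 36.5 CPM (log2 fold change 0.05, adjusted p = 0.89). Both genes are known in eosinophil, basophil and mast cell progenitors as well as in erythroid cells. Klf1 had 0.94 (adjusted p = 0.377) and Tal1 -1.59 (adjusted p = 0.0597).

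A part of the stem and multipotent progenitor genes fell. Of 24 tested, 7 fell and none rose (median -0.995), and 15 had every GMP library below every CMP library, beside 14.1% of all genes. In the fit that leaves out GMP replicate 2, 15 fell and 1 rose. Hoxa9, a homeobox factor of stem cells and early progenitors, had 148 reads over the 3 CMP libraries and 1 over the 3 GMP libraries, a ratio of scaled reads of 103 with an exact 95% counting interval from 18.1 to 4080. Mycn had 106 reads against 2, a ratio of 36.8 (interval 9.93 to 308). Both genes were at or next to 0 in every GMP library, and the intervals cover counting error only, since amplified reads are not independent molecules. Hmga2, a chromatin protein of fetal stem cells, fell from 185, 179 and 169 to 51.1, 28.5 and 34.7 CPM (log2 fold change -2.25, SE 0.27, adjusted p = 0.00428). Angpt1, a ligand of the receptor encoded by Tek, fell from 55.5, 65.8 and 66.8 to 28.5, 5.94 and 9.9 CPM (log2 fold change -2.26, SE 0.50, adjusted p = 0.0442), and Tek from 7.52, 6.27 and 7.86 to 0, 0.283 and 1.39 CPM (log2 fold change -3.10, SE 0.59, adjusted p = 0.024). Ifitm3, an antiviral membrane protein, fell from 195, 117 and 141 to 29.5, 47.2 and 32.5 CPM (log2 fold change -2.04, SE 0.30, adjusted p = 0.00875). Meis1 is the seventh. Hlf had -0.54 (adjusted p = 0.429) and Prdm16 -0.07 (adjusted p = 0.915).

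Of 10 genes of the fetal programme 3 fell, Hmga2, Mycn and Igf2bp1, an RNA-binding protein of fetal tissues (log2 fold change -1.75, adjusted p = 0.0374), and 7 fell without GMP replicate 2. Lin28b, which keeps fetal blood cells in their fetal state, was at 44.6, 37.9 and 36.4 CPM in CMP and 58, 15.3 and 16.3 CPM in GMP (log2 fold change -0.52, adjusted p = 0.476), and Igf2bp3 at 111, 99.2 and 108 and 104, 143 and 123 CPM (log2 fold change 0.22, adjusted p = 0.501). Of 8 lymphoid genes tested 3 fell: Flt3, Ighm, the mu heavy chain (log2 fold change -2.15, adjusted p = 0.0192), and Satb1, a chromatin organiser of lymphoid progenitors (log2 fold change -1.41, adjusted p = 0.0335), and 1 rose and 5 fell without GMP replicate 2. Rag2 and Il7r stayed below 10 CPM in all 6 libraries. Of 15 megakaryocyte genes none rose and 3 fell, with a median of 0.258, and 3 rose and 3 fell without GMP replicate 2 (median 0.521). Those that fell with all 6 libraries were Plek (log2 fold change -1.35, adjusted p = 0.0139), the thrombin receptor F2r (log2 fold change -3.23, adjusted p = 0.0077) and the platelet protein Mmrn1 (log2 fold change -2.84, adjusted p = 0.00322). Platelet chemokines were uneven: Ppbp was at 4.92, 300.2 and 5.21 CPM in GMP and Pf4 at 2.95, 81.7 and 11.5 CPM, both highest in GMP replicate 5.

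Markers of cells outside the gate were measured beside these results. Of 18 globin and heme genes and 20 erythroid membrane genes edgeR called none. At an unadjusted p under 0.05 the counts were 2 higher and 0 lower, and 0 and 1, DESeq2 called 0 and 1, and limma 5 and 10. Of all 11099 genes, 3064 had an unadjusted p under 0.05, DESeq2 called 1258 and limma 6966. Leaving out GMP replicate 2, 5 rose and 1 fell, and 3 and 3, beside 29.9% and 31.3% of all genes. Summed levels of the 18 globin and heme genes were 0.154% to 0.646% of scaled reads in CMP and 0.2% to 0.452% in GMP. Hepatocyte genes held 0.0356% to 0.088% in CMP and 0.00688%, 0.194% and 0.0625% in GMP, with 0 of 18 called by edgeR, 1 by DESeq2, 2 by limma and 2 at an unadjusted p under 0.05, and 4 risen without GMP replicate 2. Of 8 endothelial and stromal genes 2 fell, Tek and Egfl7 (log2 fold change -1.51, adjusted p = 0.0183), both also expressed in early blood progenitors (1 rose and 6 fell without GMP replicate 2), while Cdh5 and Kdr had too few reads to be tested. Macrophage genes held 0.0187% to 0.0254% in CMP and 0.0205%, 0.0568% and 0.0523% in GMP. The part of these cells in the results above was not tested.

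The 30 mitosis and 35 DNA replication genes had no call by edgeR or DESeq2, with medians of 0.342 and 0.275. At an unadjusted p under 0.05, 9 and 4 were higher and 0 and 2 lower, and limma called 15 and 18 higher and 6 and 5 lower. Of all 11099 genes, limma called 3348 higher and 3618 lower and DESeq2 803 and 455, and 3064 had an unadjusted p under 0.05. With GMP replicate 2 left out, 16 and 20 of the listed genes rose and 6 and 5 fell, beside 29.9% and 31.3% of all genes. Birc5, for example, was at 229.9, 186 and 200.2 CPM in CMP and 221, 451 and 429.7 CPM in GMP (log2 fold change 0.84, adjusted p = 0.134), and Aurka at 169.9, 173 and 171 and 132, 379 and 461 CPM (log2 fold change 0.93, adjusted p = 0.181). For both genes GMP replicate 2 was like CMP and the other two were higher. Of the cyclins, Ccnd1 fell from 21.05, 19.59 and 21.62 to 5.9, 3.67 and 2.95 CPM (log2 fold change -2.46, SE 0.34, adjusted p = 0.00639) and Ccnd2 from 162, 130.3 and 149 to 69.8, 74.1 and 64.1 CPM (log2 fold change -1.08, SE 0.22, adjusted p = 0.0305), while Ccnd3 was at 119, 129 and 137 and 111, 113 and 111 CPM (log2 fold change -0.20, adjusted p = 0.518). The 3 D-type cyclins, partners of CDK4 and CDK6 in entry to the cell cycle, thus had unequal values, and the differences between them were not tested. None of 25 BAF subunits, Smarcd2 included, was called by edgeR, with 1 lower by DESeq2, 5 higher and 9 lower by limma, and 1 higher and 5 lower at an unadjusted p under 0.05. Leaving out GMP replicate 2, 6 BAF subunits rose and 9 fell, where 29.9% of all genes rose and 31.3% fell. Smarcd1, a paralog of Smarcd2, was at 13, 16.5 and 15.4 CPM in CMP and 10.8, 3.67 and 2.6 CPM in GMP (log2 fold change -1.70, adjusted p = 0.0895), and Smarca4, an ATPase of the complex, at 133, 163 and 147 and 120.0, 88.5 and 85.6 CPM (log2 fold change -0.60, adjusted p = 0.153). Smarcd3 is listed in the GMP counts only, with 2 reads. Of 19 interferon response genes edgeR called 0, DESeq2 1 and limma 9, with 3 lower at an unadjusted p under 0.05, and edgeR called 1 immediate early gene of 17, Egr1. In these lists 2 rose and 7 fell, and 4 rose and 9 fell, without GMP replicate 2, beside 29.9% and 31.3% of all genes.

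The same step was measured in HET libraries, which share no library with the wild-type comparison. CMP HET replicate 1 is labelled 14.5 days post coitum and the other HET libraries 13 to 14, and the part of this age in the HET values was not tested. The libraries numbered HET 8 were left out of both populations, because GMP HET 8 stood apart: it had reads in 27233 genes from 1194444 reads in genes, with 0.0091% of reads in spike-ins. CMP HET 8 stood apart too, with reads in 15783 of the 15790 listed genes from 1577073 reads. The other CMP libraries had reads in 13049 to 14116 genes. In the remaining 6 CMP and 6 GMP HET libraries, 747 of 11082 genes rose (6.74%) and 442 fell (3.99%). Of the 274 genes that rose in wild type, 267 were tested in HET, all 267 had the same sign and 251 rose, which is 91.6% of the wild-type rises and 33.6% of the HET rises. Of the 176 that fell, 169 were tested, all 169 had the same sign and 100 fell, 56.8% of the wild-type falls and 100 of the 442 HET falls. With HET 8 included, 183 of the rises and 63 of the falls were called, and 272 of 272 and 167 of 170 had the same sign. In KO, with 4 CMP and 3 GMP libraries, 162 of 250 tested rises and 61 of 176 falls were called, where 13.9% and 5.84% of all genes were called. The sign was the same for 236 of the 250 and 164 of the 176. S100a8 and Prom1 were not among the genes tested in KO. All 3 GMP KO libraries stood apart in spike-in reads, with 2.52% to 3.06% of their reads against at most 0.414% in every other CMP, GMP and megakaryocyte-erythroid library, and in GMP this share and the KO genotype cannot be told apart.

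By list, 14 of 16 primary granule genes rose in HET, 7 of 7 eosinophil genes and 6 of 10 basophil and mast cell genes. So did 23 of 36 secretory pathway genes and 15 of 27 lysosome genes, and 1 lysosome gene fell. Of 24 stem and multipotent progenitor genes 11 fell and 1 rose. Of all genes tested in HET 6.74% rose and 3.99% fell. Other lists were mixed: 2 of 23 cytokine receptors rose and 7 fell, and 6 of 21 adhesion and surface genes rose and 3 fell. Of 18 granulocyte-monocyte factors 3 rose and 3 fell. Prtn3, which missed the threshold in wild type, had 1.33 in HET (adjusted p = 0.00232), with 254 to 363 (median 314) CPM in CMP and 591 to 1494 (median 688) CPM in GMP. Cpa3 had 1.71 (adjusted p = 0.00332) and Mcpt8 2.94 (adjusted p = 0.00679). Irf8 fell in HET, from 142 to 189.7 (median 163) to 60.7 to 101 (median 74.5) CPM (log2 fold change -1.09, adjusted p = 0.000608). Cebpa did not pass in HET (0.10, adjusted p = 0.905) and ranged in GMP from 4.33 to 50.4 (median 30.7) CPM, a spread like that of the wild-type GMP libraries. Csf1r (-1.14, adjusted p = 0.0686), Il4ra (-1.25, adjusted p = 0.135), Angpt1 (-1.46, adjusted p = 0.0518) and Calcrl (-1.60, adjusted p = 0.125) fell in wild type and did not pass in HET. Their GMP levels spread widely there, Csf1r from 26 to 156 (median 122) CPM. Prg2 spread in HET GMP from 322 to 12560 (median 714) CPM and in HET CMP from 1.12 to 74.7 (median 14.7) CPM.

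**Figure D4:**
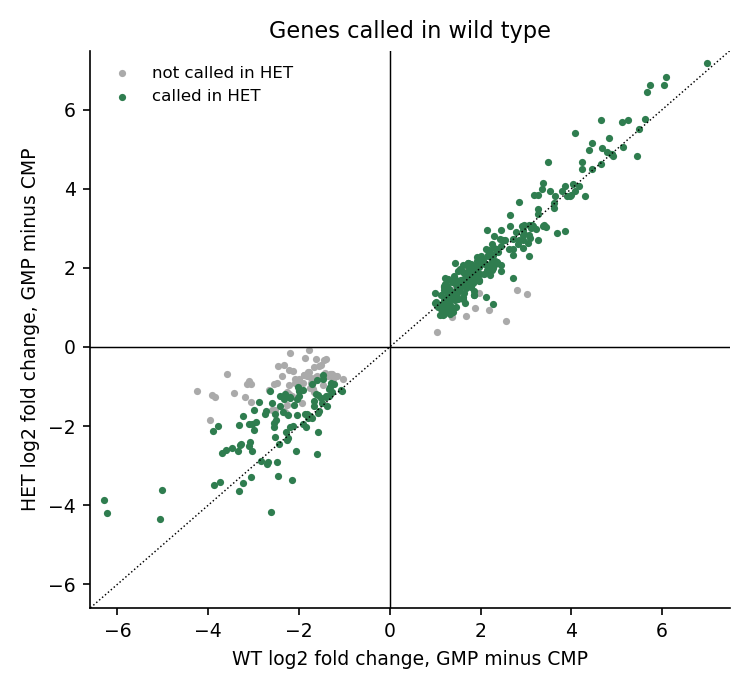
Log2 fold change, GMP minus CMP, of the 436 genes called in wild type and tested in HET, with wild type on the x axis (3 against 3 libraries) and HET without the libraries numbered 8 on the y axis (6 against 6). Green points, 351 genes, were called in HET, grey were not, and the dotted line marks equal values; every point has the same sign on both axes.

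Whether the step differed by genotype was tested as an interaction over the CMP and GMP libraries of all 3 genotypes. Between KO and WT 1 of 12585 genes passed (0.00795%), Cep83os, a non-coding RNA antisense to Cep83, with 634 at an unadjusted p under 0.05. The spike-in share of the GMP KO libraries, given above, applies to this test too. Without the libraries numbered HET 8, 24 genes passed, among them Gata2, whose step was 2.26 log2 units higher in KO (adjusted p = 0.0325). Without GMP KO replicate 13 the count was 538, without GMP KO replicate 6 it was 14, and without GMP KO replicate 15 it was 4. Between HET and WT no gene passed by edgeR or DESeq2, with 55 at an unadjusted p under 0.05, and 4997 passed by limma with quality weights. The unadjusted count by edgeR was 467 of 15172 genes without GMP WT replicate 2. It was 23 of 15174 without GMP WT replicate 5 and 20 of 15162 without GMP WT replicate 12.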

How the data were processed

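Smart-seq2 amplification and tagmentation made the libraries, per the labels' protocols, so neither strand nor molecules are marked. The authors deposited whole-number counts of reads per gene for each population, and the submitters' processing notes name featureCounts and mm10 (GRCm38). The sources used here name neither aligner nor annotation release. The CMP list (15790 genes, 21 spike-ins) starts at a row total of 7 reads and the GMP list (27892 genes, 43 spike-ins) at 1. Gene rows of both lists were used. Symbols and positions came from GENCODE M21 (GRCm38), start regions from RefSeq (GRCm38.p6).

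The 6 libraries were fitted in edgeR 4.0.16 (R 4.3.3) with TMM factors, filterByExpr (minimum count 10, minimum total 15), the robust quasi-likelihood test and Benjamini-Hochberg adjustment across every gene tested, at 0.05. The fit was also run on simulated counts with the same dispersion for every gene and no library set apart. This does not show how it deals with a library like GMP replicate 2. An SE is the absolute log2 fold change over the root of F. Genotype differences of the step were interaction contrasts over WT, HET and KO. Alternatives were DESeq2 1.42.0, limma 3.58.1 (voom, quality weights), other scalings and filters, the title series, a replicate block and libraries left out in turn. Chosen after seeing the data were the fit of HET alone, the length index and every fit lacking HET 8.

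The genes, the 29 lists and the rule for named genes were chosen with earlier results of these data known. Named are Smarcd2, the 12 largest rises and falls whose mean log2 CPM reached 3 (predicted genes passed over), in each list up to 6 members by lowest p, members of lists that are gone through one by one, and the 5 genes with most reads that the GMP list alone holds. Other list members with values, such as Cebpa, Hyou1, Myb and Birc5, were picked after their values were seen. Values of some list members are not reported here.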

Additional observations from a re-analysis of the deposited data

Results flagged for a closer look

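The step from CMP to GMP differed between KO and WT for 1 gene, Cep83os, a non-coding RNA antisense to Cep83, by -5.04 log2 units (edgeR interaction, adjusted p = 0.0319). Its step was 0.06 in wild type and -4.98 in KO. It had 81, 34 and 43 reads in the CMP WT libraries and 16, 33 and 59 in the GMP WT libraries, 33 to 50 in the 4 CMP KO libraries, and 0, 1 and 2 in GMP KO replicates 6, 13 and 15. Scaled to reads in genes this is 8.65 to 15.9 CPM in GMP WT and at most 0.441 CPM in GMP KO. The 3 GMP KO libraries held 2.52% to 3.06% spike-in reads against at most 0.414% in the other CMP, GMP and megakaryocyte-erythroid libraries, which cannot be told apart from the genotype there. The protocol does not mark strand, so reads of Cep83os and of Cep83 cannot be told apart. No gene passed in the fit with the replicate block, by limma, or when any 1 WT library or CMP KO replicate 6, 11 or 13 was left out. Without the libraries numbered HET 8 its difference was -5.05 (adjusted p = 0.00679).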

How the results depend on the processing

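The count of genes called between wild-type GMP and CMP (450) stayed within 1.5 times under RLE scaling, no scaling factors, library sizes over all rows, no count filter, the length index as a covariate and a joint fit without the libraries numbered HET 8 (383 to 488). It was 281 with a minimum count of 50, 1258 by DESeq2, 6966 by limma with quality weights, 280 with the series number as a term, 52 within series M32, 128 with all CMP and GMP libraries and 122 with MEP libraries too. Leaving out 1 library gave 31 to 6907. No named gene changed sign where called. Of 78 called named genes, the 78 passed by DESeq2, limma and without GMP replicate 2, and 20 to 52 without another library. Those that lost the call were 18 with the replicate block, 52 within M32, 13 with the series term, 31 with all CMP and GMP libraries, 14 without HET 8 and 3 with the length index (Prg2, adjusted p = 0.188, Egr1, 0.0788, and Ctsb, 0.0514).

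The replicate block gave 228 calls (162 higher, 66 lower), with 0 of 36 secretory pathway genes higher in place of 7 and 2 of 27 lysosome genes in place of 5. Same-numbered libraries correlated in their deviations at 0.006 (replicate 2), -0.027 (replicate 5) and 0.234 (replicate 12), so the numbers were not taken as pairs. Only replicate 12 correlated best with its own number. Reads of Xist and of Y-linked genes matched between the populations for each number. Xist had 2706, 966 and 3 reads in CMP replicates 2, 5 and 12 and 432, 422 and 1 in GMP. Ddx3y, a Y-linked gene, had 3, 2 and 180 reads in CMP and 4, 3 and 154 in GMP. Replicate 12 is also the only number titled M33, so this difference and the title series cannot be told apart here.

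For KO minus WT, 1 gene passed, 2 with RLE scaling, 2 with a minimum count of 50, 46 by DESeq2, 0 by limma, 0 with the replicate block and 24 without HET 8, and 0 to 538 with 1 library left out. For HET minus WT none passed, and 4997 did by limma. The cause of these shifts was not tested. At 1006090 reads, 1 read in GMP replicate 2 is about 0.983 CPM, which limits all values near 0 there.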

Other observations

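Actb, a reference gene for many assays and a subunit of BAF, was at 3726, 5180.1 and 3844 CPM in CMP and 3439, 655 and 806 CPM in GMP, so that GMP replicate 2 was like CMP and the other two were far lower (log2 fold change -1.38, SE 0.60, adjusted p = 0.179). Cdkn1b, which encodes the cell cycle inhibitor p27, was at 15.3, 12.3 and 17.4 CPM in CMP and 18.7, 0.565 and 1.74 CPM in GMP with the same split (log2 fold change -1.72, adjusted p = 0.245). Hyou1 and Myb, given above, were higher than CMP in GMP replicate 2 and lower than CMP in the other two. These genes were singled out after their values were seen. By transcript length, the median log2 fold change was 0.064 for 1591 genes below 1500 exonic bases, 0.197 for 4930 genes between, and -0.263 for 4493 genes above 5000 bases. Without GMP replicate 2 these medians were 0.141, 0.268 and -0.45.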
